A study of Mus musculus with 10 samples.

Results

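Junction genes were compared between tuft cells and other epithelial cells of the inflamed mouse pancreas. The 47 genes described here were taken by name alone from the 12160 genes of the expression table. Every listed claudin, connexin named Gja, Gjb or Gjc, desmosomal cadherin, zonula occludens (Tjp) gene, plakophilin, cingulin and Marvel domain gene was taken. So were cadherins named Cdh with a number, genes named Ctnna, Ctnnb or Ctnnd, and Ocln, F11r, Dsp, Jup and Epcam. All are called junction genes here, although a name match does not make each a junction protein (Ctnnbip1 is not one). The 47 fell into 13 claudins, 1 claudin domain gene (Cldnd1), 4 connexins, 10 other tight junction genes, Epcam, 4 cadherins, 2 desmosomal cadherins, 6 desmosomal plaque genes and 6 catenins or catenin-related genes. In the mm9 annotation 102 gene names match the same pattern, and the table lists 46 of these plus Cldnd1.

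Smart-Seq2, a method that copies polyadenylated RNA from very few cells, was used on pools of 100 sorted cells. All cells came from 5 male wild-type CD1 mice, labelled as a mixed strain, with pancreatitis caused by 4 cycles of 250 μg/kg caerulein, a secretagogue that injures acinar cells. There were 5 libraries of tuft cells (Cd45-neg; EpCAM+; Siglec f+) and 5 of non-tuft epithelial cells (Cd45-neg; EpCAM+; Siglec f-neg), each from a single mouse, so both groups shared the injury, the exclusion of leukocytes by Cd45 and the choice of EpCAM+ cells. The age of the mice is not given in the sources used here, and no uninjured tissue was analysed here. Non-tuft cells were chosen only by lacking Siglec f, and could therefore hold acinar, ductal and islet cells in any proportion. Since each library pooled cells, fewer cells of one type and less RNA per cell cannot be told apart.

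Tuft cells are chemosensory epithelial cells with a tuft of long microvilli, normally absent from the mouse pancreas and formed there upon injury. Epithelial cells are joined by tight junctions, which seal the space between cells and are built from claudins and occludin anchored to zonula occludens and cingulin proteins. Below these lie adherens junctions, where E-cadherin is linked to actin through catenins, and desmosomes, where desmogleins and desmocollins are tied to keratin by desmoplakin and plakophilins. Gap junctions are channels of connexins that pass ions and small molecules between neighbouring cells, and acinar cells of the pancreas are known to be coupled by them.

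The labels were checked against marker genes before the junction genes were read. All 14 listed tuft cell markers were higher in the tuft libraries and 14 of 17 acinar markers were lower, with no acinar marker at 0 in every tuft library. The tuft markers include Siglecf, the gene of the protein used to sort the groups, so its rise is no independent check of the labels. RPKM stands for reads scaled to transcript length and library depth, and is used here as left by the authors' quantile normalization between libraries. Summed tuft marker RPKM ran from 4431 to 12650 in tuft libraries and from 1.33 to 544 in non-tuft libraries, and was highest there in non-tuft 2 and non-tuft 5. Acinar markers summed to between 753 and 69090 in tuft libraries, highest in tuft 4, against 70620 to 107000 in non-tuft libraries. Of 16 islet markers, 5 were lower in tuft libraries and none was higher, with a sum of 44.2 to 90.5 against 151 to 22810. Of 15 ductal markers, 3 were higher and 1 was lower. The part that these other cells had in the differences below was not tested, and counts are also given without tuft 4, non-tuft 2 and non-tuft 5, called the 3 doubted libraries from here on.

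Values are log2(RPKM + 1), quantile normalized by the authors, so a difference of 1 is a doubling on that scale, and differences are tuft minus non-tuft from limma with Benjamini-Hochberg adjustment over all listed genes. A gene passed the test at an adjusted p under 0.05, and was called when its fold change was also over 4. By the called rule 2 of the 47 junction genes were higher in tuft cells (4.26%, where 4.32% of all listed genes were) and 7 were lower (14.9%, where 3.99% of all listed genes were). By adjusted p alone 7 were higher (14.9%, against 6.19% of all listed genes) and 7 lower (14.9%, against 5.55%). For 14 of the 47 every tuft library lay on one side of every non-tuft library (29.8%, against 11.4% of all listed genes). The median difference over the 47 was 0.09, or 0.32 without the 6 genes that lay at the lowest value of the table in every library of a group, and 0.02 over all listed genes. With the 3 doubted libraries left out, 2 were called higher and 5 lower, since Cldn2, Cldn6 and Gjb1 dropped out and Cldn8 joined. On adjusted p 4 then rose (Pkp1, Dsp, Tjp3 and Dsc2) and 5 fell, while Cgn, Cldn7, Epcam and Ctnnbip1 no longer passed. The table had been filtered by the authors on variance across all libraries, so that a gene silent in one group could be listed only through the other.

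**Figure D1:**
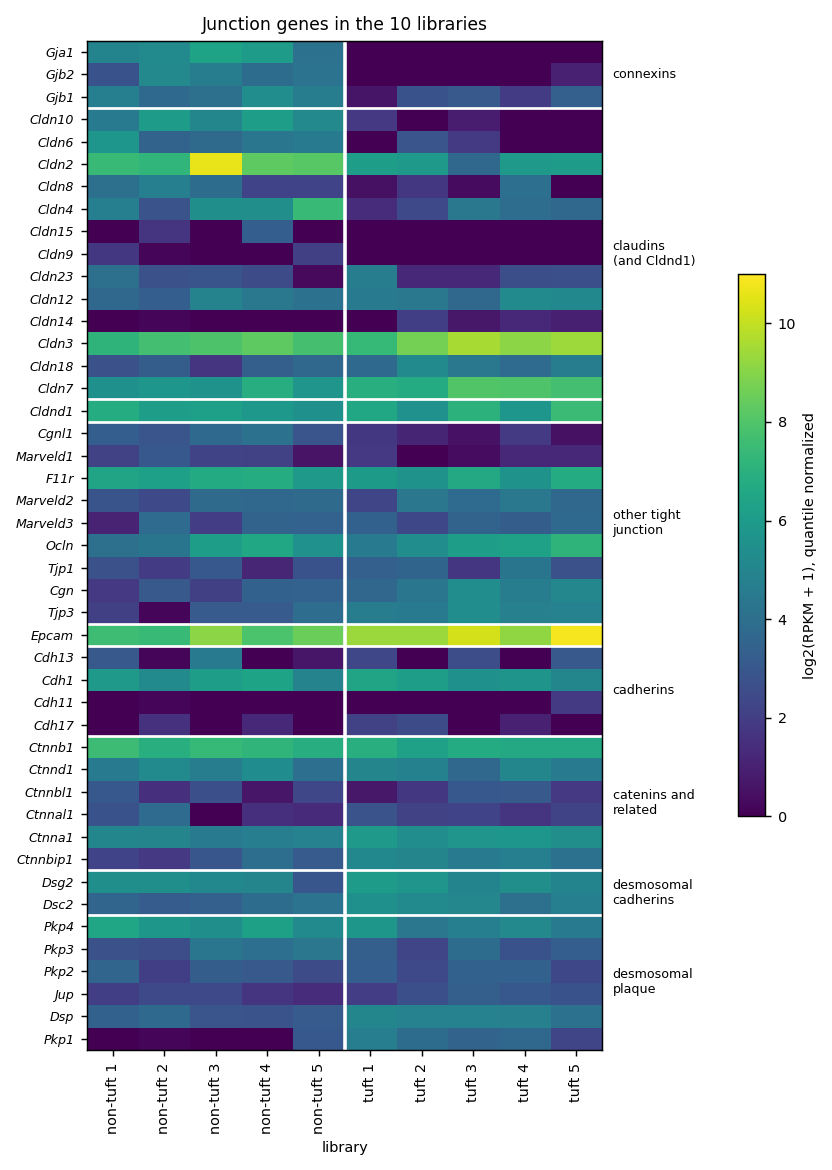
Level of 45 of the 47 junction genes (rows, by class) in the 10 libraries (columns, non-tuft on the left), as log2(RPKM + 1) by colour from 0 to 11. Gja1, Gjb2 and Cldn10 are dark in the tuft columns, whereas Pkp1 is dark in 4 of the 5 non-tuft columns.

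The connexins had the lowest median difference of any class, at -3.05. Of the 4 connexins in the set 3 were called lower in tuft cells, where 3.99% of all listed genes were. The summed RPKM of the class was 0.53 to 10.4 in tuft libraries against 57.8 to 126 in non-tuft libraries. Gja1 encodes connexin 43, Gjb2 connexin 26 and Gjb1 connexin 32. The windows of 250 bases before the RefSeq start sites of the genes below (GRCm38.p6, printed 5′ to 3′ on the strand of the gene) are shown because these are called connexins and claudins whose windows hold a searched motif. Capitals mark an AP-1 type TGANTCA in Gja1 (chr10:56377050-56377299, + strand), CAGGTG, the reverse complement of the Snail and Zeb type E-box CACCTG, in Gjb2 (chr14:57104703-57104952, - strand) and in Cldn6 (chr17:23679115-23679364, + strand), and TATAAA in Cldn2 (chrX:139800558-139800807, + strand).
Gja1: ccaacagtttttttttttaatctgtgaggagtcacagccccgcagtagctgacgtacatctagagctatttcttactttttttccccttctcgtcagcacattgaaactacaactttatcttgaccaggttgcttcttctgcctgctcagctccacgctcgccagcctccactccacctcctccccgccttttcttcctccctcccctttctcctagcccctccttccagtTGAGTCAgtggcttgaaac
Gjb2: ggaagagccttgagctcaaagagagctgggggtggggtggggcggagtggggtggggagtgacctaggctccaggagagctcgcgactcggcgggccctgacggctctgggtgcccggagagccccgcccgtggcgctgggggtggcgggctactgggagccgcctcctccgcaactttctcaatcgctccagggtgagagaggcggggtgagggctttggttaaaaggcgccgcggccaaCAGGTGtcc
Cldn6: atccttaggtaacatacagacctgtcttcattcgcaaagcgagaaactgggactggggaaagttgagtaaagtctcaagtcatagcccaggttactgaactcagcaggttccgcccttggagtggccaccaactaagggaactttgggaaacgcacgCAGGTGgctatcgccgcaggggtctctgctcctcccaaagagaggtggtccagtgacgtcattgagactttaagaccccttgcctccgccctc
Cldn2: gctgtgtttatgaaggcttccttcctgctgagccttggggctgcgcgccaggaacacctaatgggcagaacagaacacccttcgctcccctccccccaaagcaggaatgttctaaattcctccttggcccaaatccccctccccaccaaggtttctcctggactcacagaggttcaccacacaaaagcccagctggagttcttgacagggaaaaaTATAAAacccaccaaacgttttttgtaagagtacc

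Promoter windows were found for 31 of the 47 genes, 48 windows in all, and each motif was searched on both strands. CACCTG or CAGGTG occurred in 12 of the 48 (25%), against 17.2% of all 32851 windows. Among the first windows listed for genes passing the test, it was in Gjb2 and Cldn6 (lower) and in Tjp3 and Epcam (higher). TATAAA occurred in 12.5% against 12.4%, and TGANTCA in 8.33% against 6.75%. Neither ATGCAAAT, the octamer bound by Pou factors, nor AACCGGTT, a Grhl type site, was found in any of the 48, against 1.6% and 0.116% of all windows. A match here describes letters only.

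Gja1 was listed at 0 in all 5 tuft libraries, whereas the non-tuft libraries held 4.97, 5.21, 6.37, 6.02 and 4.13 (replicates 1 to 5). The groups lay far apart, with an adjusted p of 1.08e-05 by limma, and no fold is given against a group at 0. Gjb2 was listed at 0 in 4 tuft libraries, with 1.03 in tuft 5, while non-tuft libraries held 2.77, 5.20, 4.68, 3.88 and 4.18. Its difference was -3.94 (SE 0.48, 15.3-fold lower, adjusted p = 1.90e-04 by limma), with no overlap. With so many values at 0 the size depends on the constant added to RPKM, and was -6.67 with 0.1 and -1.44, under the fold threshold, with 10. Gjb1, the connexin most associated with secretory and liver epithelium, was the one that tuft libraries kept: it read 0.61, 2.76, 3.09, 1.96 and 3.37 there and 4.76, 3.77, 4.04, 5.38 and 4.65 in non-tuft libraries. It differed by -2.16 (SE 0.55, adjusted p = 0.0209 by limma). This was the least steady connexin call: the adjusted p was 0.0524 without non-tuft 4, 0.0536 without tuft 4 and 0.121 without the 3 doubted libraries, and the fold was under 4 without tuft 1 (difference -1.73). It was also lost with 0.1 in place of 1 added to RPKM (adjusted p = 0.0603) and with libraries centred on ribosomal protein genes (difference -1.36, adjusted p = 0.163).

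As shares of the RPKM of these 3 connexins in a library, Gja1 held a median of 48.8% in non-tuft libraries, Gjb1 34.3% and Gjb2 20.2%. In 4 tuft libraries Gjb1 was the entire signal of the 3, and in tuft 5 Gjb2 held 10.0% and Gjb1 the rest. Panx1, the ubiquitous pannexin channel, which resembles connexins in shape but opens to the outside of the cell, went the other way. It rose by 2.64 (SE 0.63, adjusted p = 0.0151 by limma), from 0 to 3.18 in non-tuft libraries to 3.62 to 5.08 in tuft libraries. Panx1 was the only one called of the 3 listed genes of its list, where 4.32% of all listed genes were called higher.

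Over all listed genes 3.99% were called lower and 4.32% higher. Among the 13 claudins, 3 were called lower (Cldn10, Cldn6 and Cldn2) and none higher, and Cldn7 rose on adjusted p alone. Their median difference was -0.81, or -0.98 without the 3 at 0 throughout a group. Claudins decide which ions a tight junction lets through, and Cldn2 and Cldn10 are known for forming paracellular channels while Cldn3 and Cldn7 are general epithelial claudins. Cldn10 read 4.50, 6.08, 5.04, 6.16 and 5.18 in non-tuft libraries but 1.81, 0, 0.84, 0 and 0 in tuft libraries. The difference of -4.86 (SE 0.49, 29.1-fold lower, adjusted p = 5.01e-05 by limma) held in every fit that left out 1 library, with adjusted p up to 3.71e-04. Its size was -7.11 with 0.1 and -2.29 with 10 added to RPKM in place of 1.

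Cldn2, which forms channels for sodium and water, had the highest mean of the junction genes in non-tuft cells, at 7.46, 7.25, 10.64, 8.27 and 8.14. Epcam was above it in non-tuft 1, 2 and 5, Ctnnb1 in non-tuft 1 and Cldn3 in non-tuft 2. For Cldn2 the tuft libraries still held 6.13, 5.96, 3.70, 5.91 and 6.10, so that the gene was lower but well expressed there. The difference was -2.79 (SE 0.68, adjusted p = 0.0164 by limma), with no overlap, and the adjusted p was 0.0883 without the 3 doubted libraries and 0.0546 when libraries were centred on ribosomal protein genes. With the replicate number added to the fit, the adjusted p of Cldn2 was 0.0635 by limma. Cldn6, mainly an embryonic claudin, read 5.79, 3.49, 3.80, 4.34 and 4.54 in non-tuft libraries against 0, 2.90, 1.87, 0 and 0 in tuft libraries. Its difference was -3.44 (SE 0.65, adjusted p = 0.00388 by limma), and the adjusted p was 0.0637 without the 3 doubted libraries. Cldn9 ends 138 bases from Cldn6 on chromosome 17 and was listed at 0 in all tuft libraries and above the lowest value in non-tuft 1 (1.80) and non-tuft 5 (2.09) only, with an adjusted p of 0.333 by limma.

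Cldn7 read 6.88, 6.79, 8.01, 7.99 and 7.70 in tuft libraries and 5.51, 5.79, 5.62, 6.85 and 5.71 in non-tuft libraries. The groups overlapped at non-tuft 4, and the rise of 1.58 (SE 0.43, adjusted p = 0.0287 by limma) kept a size of 1.44 to 1.53 but did not pass, at an adjusted p of 0.0509 to 0.0747, when any of non-tuft 1, 3 or 5 or tuft 3, 4 or 5 was left out. Without the 3 doubted libraries the adjusted p of Cldn7 was 0.158 by limma. Cldn3 was the highest claudin in tuft cells at 7.37, 8.71, 9.55, 9.07 and 9.38, against 7.14, 7.72, 7.91, 8.26 and 7.75. Its difference of 1.06 did not pass (SE 0.46, adjusted p = 0.173), but did without tuft 1 (adjusted p = 0.0381 by limma). Cldn18, the claudin of stomach and lung, read 3.75 to 5.28 in tuft libraries and 1.71 to 3.67 in non-tuft libraries, which did not overlap, at a difference of 1.45 (adjusted p = 0.0651 by limma).

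The remaining claudins did not pass. Cldn4 and Cldn3 lie 39279 bases apart on chromosome 5, yet their differences had opposite signs, since Cldn4 read 1.38 to 4.42 in tuft libraries and 2.79 to 7.40 in non-tuft libraries (difference -1.98, adjusted p = 0.135, and 0.0411 without non-tuft 2, by limma). Cldn8 was at 4.03 in tuft 4, the tuft library with the most acinar marker RNA, and at 0 to 1.78 in the other 4, against 2.20 to 4.77 in non-tuft libraries. Its difference of -2.09 had an adjusted p of 0.107 by limma, and 0.0180 without tuft 4. Cldn14 was undetected in the non-tuft group and read 0.72 to 2.04 in 4 tuft libraries (adjusted p = 0.165 by limma), whereas Cldn15 was at 0 in all tuft libraries (adjusted p = 0.342). Cldn12 and Cldn23 differed by 0.53 and 0.02.

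The claudin RNA of each library was also divided by gene. Summed claudin RPKM was 414 to 1077 in tuft libraries and 513 to 2023 in non-tuft libraries, which overlapped. Cldn3 held 39.6 to 69.6% of it in tuft libraries and 11.8 to 38.2% in non-tuft libraries. Cldn7 held 16.5 to 28.3% against 2.38 to 12.6%, and Cldn2 held 1.11 to 16.7% against 27.6 to 78.9%. None of these 3 shares overlapped between the groups. They are parts of 1 total and so do not vary independently, and no test was made on them.

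**Figure D2:**
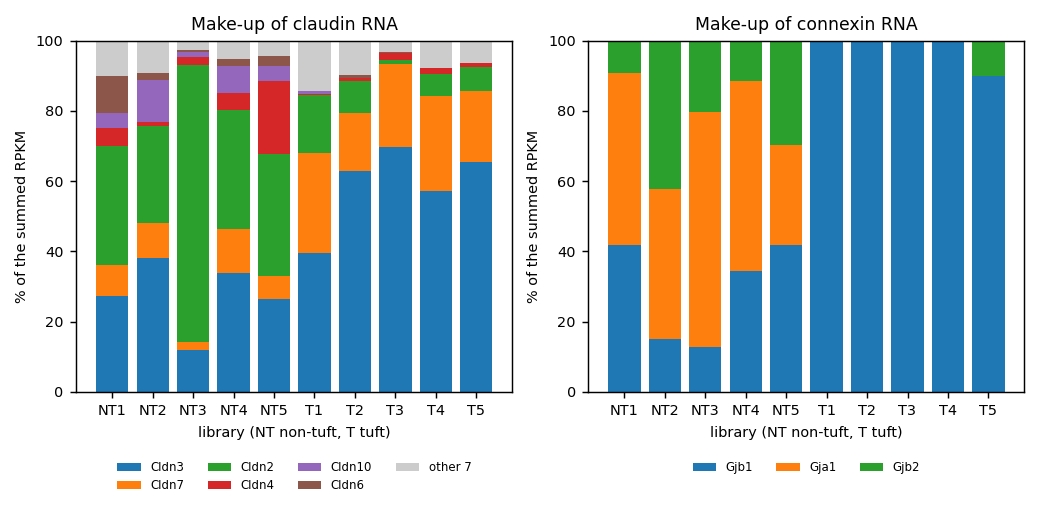
Percent of summed claudin RPKM (left) and of the RPKM of 3 connexins (right) held by each gene, 1 bar per library, with the other 7 claudins pooled in grey. Cldn2 holds 27.6 to 78.9% of the claudin bars of non-tuft libraries and at most 16.7% in tuft libraries, and Gjb1 fills the tuft connexin bars apart from 10.0% Gjb2 in tuft 5.

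Of the 10 other tight junction genes, Tjp3 was called higher, Cgn rose on adjusted p alone, and Cgnl1 was called lower. The shares over all listed genes were 4.32% called higher and 3.99% called lower. Cgn (cingulin) and Cgnl1 (paracingulin) are related plaque proteins that link junctions to the cytoskeleton, and their differences had opposite signs. Cgn read 3.64, 4.30, 5.40, 4.62 and 5.10 in tuft libraries and 1.82, 3.06, 2.08, 3.42 and 3.44 in non-tuft libraries, a rise of 1.85 (SE 0.48, adjusted p = 0.0239 by limma). Cgnl1 read 1.78, 1.15, 0.53, 1.85 and 0.48 in tuft libraries and 3.28, 2.90, 3.76, 4.1 and 2.92 in non-tuft libraries, a difference of -2.24 (SE 0.44, adjusted p = 0.00458 by limma). Neither pair of groups overlapped. When libraries were centred on ribosomal protein genes the difference of Cgnl1 was -1.43, under the fold threshold.

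The test for Cgn did not pass without non-tuft 1 or 3 or tuft 3 or 5, at an adjusted p of up to 0.0663. Nor did it pass without the 3 doubted libraries (adjusted p = 0.0744 by limma). Cgn also shares 8867 bases with BC021767, a transcript annotated on the same strand that was called higher by 2.74, so that reads of these genes may have been split between them. It shares 10858 bases with Selenbp2 on the other strand, which differed by -0.54 (adjusted p = 0.593 by limma).

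Tjp3 encodes ZO-3, the epithelial member of the zonula occludens scaffolds. It read 4.65, 4.50, 5.41, 4.77 and 4.89 in tuft libraries, a narrow range, and 2.09, 0.17, 3.15, 3.15 and 3.93 in non-tuft libraries, where 0.17 is the lowest value of non-tuft 2. The rise was 2.35 (SE 0.61, adjusted p = 0.0245 by limma). The call was lost without non-tuft 1 (adjusted p = 0.0566), tuft 3 (0.0688), tuft 4 (0.0528) or tuft 5 (0.0580), and without non-tuft 2 the difference of 1.76 was under the fold threshold. It was also lost with 0.1 added to RPKM (adjusted p = 0.101). Tjp1 (ZO-1) differed by 0.80 and did not pass (adjusted p = 0.393 by limma).

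Among the membrane proteins of the tight junction other than claudins, F11r (JAM-A) had the highest mean in both groups, although Ocln was above it in tuft 4 and tuft 5. F11r read 5.60 to 6.79 in tuft libraries and 5.92 to 6.81 in non-tuft libraries. The difference was -0.28, with a 95% confidence interval of -1.13 to 0.57. Ocln (occludin) differed by 0.56 (-0.76 to 1.89). Its relatives Marveld1, Marveld2 (tricellulin) and Marveld3 differed by -1.07, 0.41 and 0.49, and none of these passed.

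Epcam, the cell adhesion protein on which all cells were sorted, was high in every library and was the highest junction gene in tuft cells. Levels were 9.35, 9.37, 10.31, 9.19 and 10.87 in tuft libraries and 7.56, 7.44, 9.08, 7.90 and 8.53 in non-tuft libraries. The rise was 1.72 (SE 0.48, 3.29-fold, adjusted p = 0.0329 by limma), with no overlap, within a gate that required the protein in both groups. It did not pass when non-tuft 1, 2 or 4 or tuft 3 or 5 was left out (adjusted p of 0.0648 to 0.0850). Nor did it pass without the 3 doubted libraries (adjusted p = 0.108 by limma).

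**Figure D3:**
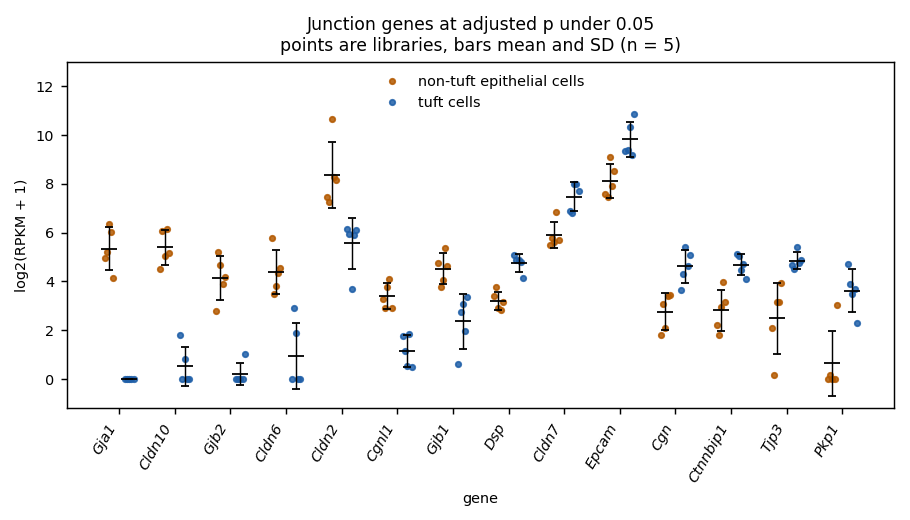
Level, as log2(RPKM + 1), of the 14 junction genes at an adjusted p under 0.05 in each library (points, orange non-tuft and blue tuft), with the mean and SD of the 5 libraries of each group in black. Gja1 lies at 0 in all tuft libraries, Pkp1 is above 0.17 in a single non-tuft library (3.02), and Cldn2 and Epcam are high in both groups.

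None of the 4 listed cadherins passed the test. Cdh1, which encodes E-cadherin, read 6.41, 6.15, 5.53, 5.68 and 5.03 in tuft libraries and 5.92, 5.27, 6.16, 6.37 and 4.93 in non-tuft libraries, fully overlapping. The difference was 0.03 (SE 0.43), with a 95% confidence interval of -0.89 to 0.96, so that a change within that interval was not excluded by these libraries. Cdh1 held 76.1 to 98.0% of the summed cadherin RPKM in tuft libraries and 76.8 to 98.3% in non-tuft libraries. Cdh17, Cdh13 and Cdh11 were each at the lowest value in at least 2 libraries of each group, and none passed. Cdh11, a mesenchymal cadherin, was above it only in tuft 5 (1.87), which also held 275 RPKM of summed fibroblast and mural markers against 0 to 5.63 in the other tuft libraries.

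Of the catenins, Ctnnb1 (beta-catenin) was the highest, at 6.30 to 6.96 in tuft libraries and 6.84 to 7.52 in non-tuft libraries (difference -0.51, adjusted p = 0.404 by limma). Ctnnd1 (p120-catenin) differed by -0.14. Ctnna1 (alpha-catenin), which ties the complex to actin, read 5.39 to 5.95 in tuft libraries and 4.52 to 5.06 in non-tuft libraries without overlap, but its difference of 0.82 did not pass (adjusted p = 0.152 by limma). Ctnnbip1 encodes an inhibitor that keeps beta-catenin from its Tcf partners and is not a junction protein. It read 5.12, 5.03, 4.49, 4.73 and 4.08 in tuft libraries and 2.20, 1.82, 2.94, 3.98 and 3.17 in non-tuft libraries, a rise of 1.87 (SE 0.46, adjusted p = 0.0179 by limma). It held in each fit that left out 1 library, but not without the 3 doubted libraries (adjusted p = 0.105). Ctnnal1 and Ctnnbl1 differed by 0.32 and 0.04.

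Of the 6 desmosomal plaque genes Pkp1 was called higher, where 4.32% of all listed genes were. Dsp rose on adjusted p alone and the other 4 did not pass. Pkp1 (plakophilin 1), best known from stratified epithelia, read 4.73, 3.90, 3.50, 3.71 and 2.29 in tuft libraries and lay at the lowest value in 4 non-tuft libraries, with 3.02 in non-tuft 5. The rise was 2.99 (SE 0.64, 7.92-fold, adjusted p = 0.00820 by limma), and held in each fit that left out 1 library and without the 3 doubted libraries (adjusted p = 0.0139). Its size was 5.35 with 0.1 and 0.99, under the fold threshold, with 10 added to RPKM. Non-tuft 5, where Pkp1 was present, held 537 RPKM of tuft markers, and non-tuft 2, where it was not, held 544. The part of tuft cells in the Pkp1 value of non-tuft 5 was not tested. Dsp (desmoplakin), which anchors keratin, read 5.07, 4.88, 4.86, 4.81 and 4.13 in tuft libraries and 3.40, 3.76, 2.91, 2.83 and 3.14 in non-tuft libraries. This rise of 1.54 (SE 0.37, adjusted p = 0.0151 by limma) held in each fit that left out 1 library, with no overlap.

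Pkp4, which also serves adherens junctions, had the highest mean of the plaque genes in both groups, although Dsp was above it in tuft 2 and tuft 3. Pkp4 read 4.37 to 5.84 in tuft libraries and 5.27 to 6.47 in non-tuft libraries (difference -0.91, adjusted p = 0.197 by limma). Pkp2 and Pkp3 differed by 0.09 and -0.48. Jup (plakoglobin) differed by 0.77 (adjusted p = 0.254). As a share of desmosomal plaque RPKM, Dsp held 24.1 to 37.5% in tuft libraries and 5.72 to 15.6% in non-tuft libraries, whereas Pkp4 held 25.9 to 41.6% against 47.9 to 75.1%. Of the desmosomal cadherins, Dsc2 read 4.04 to 5.51 in tuft libraries and 3.22 to 4.18 in non-tuft libraries, a difference of 1.27 that lay just outside the threshold (adjusted p = 0.0568), and passed without tuft 4 (0.0276) or non-tuft 5 (0.0445 by limma). Dsg2 differed by 0.62 (adjusted p = 0.510 by limma).

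**Figure D4:**
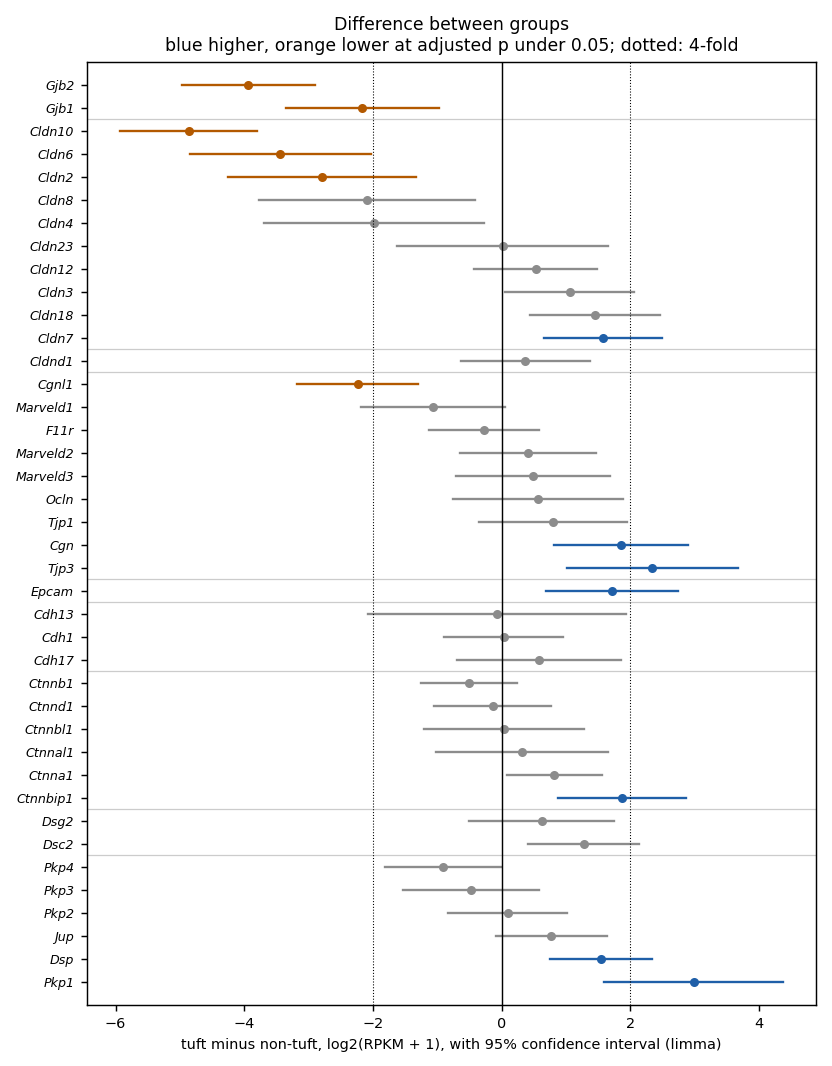
Tuft minus non-tuft difference of log2(RPKM + 1) (points) with its 95% confidence interval from limma (lines) for 40 junction genes not at the lowest value throughout a group, by class. Blue and orange mark genes higher or lower at an adjusted p under 0.05, and the dotted lines mark a 4-fold change. Cldn10 lies lowest at -4.86 and Pkp1 highest at 2.99, while Cdh1 sits at 0.03.

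The genes that work beside these were read from lists of known junction partners. The 25 listed tight junction partners had a median difference of 0.33, and 4 of them were called higher and 1 lower. By comparison 4.32% of all listed genes were called higher and 3.99% lower. Spint2, a protease inhibitor that protects claudin 7 and Epcam from cleavage, rose by 2.71 (SE 0.51, adjusted p = 0.00372 by limma), from 9.01 to 10.43 in non-tuft libraries to 11.16 to 13.44 in tuft libraries. Ildr1, an angulin of tricellular junctions, rose by 2.31 (adjusted p = 0.00426), and Esam, an adhesion molecule also known from endothelium, by 2.59 (adjusted p = 0.0170 by limma). The groups overlapped for Esam, at 3.415 in non-tuft 3 against 3.232 in tuft 4. Summed endothelial markers, Esam among them, were 33.0 to 94.4 RPKM in tuft libraries and 1.27 to 44.3 in non-tuft libraries. Of the 5 listed, Tek and Esam were called higher and Tie1 passed on adjusted p alone (0.0318 by limma), whereas Pecam1 and Egfl7 did not pass. Tek lay at the lowest value throughout the non-tuft group and between 4.56 and 6.42 in the tuft group, and Pecam1 was at 0 in 4 of 5 tuft libraries. The part of endothelial RNA in the value of Esam was not tested. The angiomotins were split, since Amot rose by 2.12 (adjusted p = 0.0430) and Amotl1 fell by 3.28 (adjusted p = 0.00549 by limma). Amot overlapped between the groups, at 3.485 in non-tuft 1 against 3.352 in tuft 4. Cxadr, a JAM-related receptor, fell by 1.56 on adjusted p alone (0.0262 by limma).

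Of 24 adherens junction partners none was called, and Ssx2ip, Lmo7 and Pvrl1 (nectin 1) rose by 1.61, 1.64 and 1.71 on adjusted p alone (0.0248, 0.0326 and 0.0433 by limma). For this and the next 2 lists, 6.19% of all listed genes were higher on adjusted p and 4.32% were called higher. Among 22 polarity genes Pard6g, a Par6 scaffold, was the only one called, with a rise of 3.24 (SE 0.65, adjusted p = 0.00536 by limma). Of 10 desmosome and hemidesmosome partners, Krt18 and Krt8, the keratins of simple epithelia, rose by 3.69 (adjusted p = 5.77e-04) and 3.36 (adjusted p = 0.00316 by limma), and the other 8 were not called. The median of that list was -0.57, or -0.23 without the gene at 0 throughout a group. Krt8 and Krt18 are also among the ductal markers that were higher.

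Of 8 protocadherins and atypical cadherins, Cdhr2 and Cdhr5, which join the tips of neighbouring microvilli, rose by 4.76 (SE 0.77, adjusted p = 0.00141) and 4.23 (SE 0.62, adjusted p = 8.05e-04 by limma). Cdhr2 read 6.09 to 7.23 in tuft libraries and 0 to 4.35 in non-tuft libraries. Both rises exceeded that of every junction gene among the 47, although Gja1 and Cldn10 fell by more. The proteins of Cdhr2 and Cdhr5 belong to the brush border rather than to the lateral junctions. Of 15 epithelial state regulators 3 were called higher and 1 lower, where 4.32% and 3.99% of all listed genes were. Klf4 rose by 3.33 (adjusted p = 0.00804 by limma) and Hnf4a by 2.03 (adjusted p = 0.0496 by limma), both with overlapping groups. Klf4 in non-tuft 4 (4.32) was above tuft 3 and tuft 5. Hnf4a in non-tuft 1 (6.19) was above tuft 1, tuft 3 and tuft 5. Grhl3 passed at an adjusted p of 0.0350, and Fn1 (fibronectin), a mesenchymal matrix gene, fell by 3.28 (adjusted p = 0.00415 by limma). Markers of fibroblasts and mural cells, which also make Fn1, summed to 0 to 275 RPKM in tuft libraries and 10.2 to 817 in non-tuft libraries, and their part in that value was not tested. Grhl3 lay at the lowest value throughout the non-tuft group and ran from 0 to 4.62 in the tuft group, where 4 of 5 were above it.

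For single genes a two-sided exact permutation test over the 252 assignments of 5 of 10 libraries was also made, and its smallest possible value, 0.00794, was reached by the 14 genes whose groups did not overlap. By this test Pkp1, Cldn7 and Dsc2, which overlapped, each gave 0.0159.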

How the data were processed

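Libraries of 100 sorted cells were made with Smart-Seq2 and read as 50-base single ends. The authors mapped reads to mm9 with Hisat2, quantified genes with Stringtie and Ballgown, removed genes whose RPKM variance across samples was under 1, and deposited log2(RPKM + 1) values, quantile normalized over the 10 libraries (12160 genes). Quantile normalization gives every library the same distribution, so a shift of total RNA cannot be seen. RPKM was taken here by undoing only the log2 of the deposited values, and the quantile normalization was kept. Sums and shares of RPKM are therefore on the normalized scale and are not the RPKM originally measured. Read depth is unknown, so no counting interval is given. The deposited table also holds the authors' own fold ratio, p-value and false discovery rate columns, none of which was used. Versions of those tools are not given in the sources used here.

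Groups followed the sample titles. Tuft minus non-tuft differences were fitted over all 10 libraries and all genes with limma 3.58.1 (R 4.3.3, lmFit and eBayes, tested on simulated data) with Benjamini-Hochberg adjustment, and were called where the adjusted p was under 0.05 and the fold over 4. Groups carry the replicate numbers 1 to 5, which the labels do not tie to a mouse. Both groups came from the same 5 mice, but the main fit and the permutation test treated all 10 libraries as independent. The lowest value of a library (0.17 in non-tuft 2, 0 elsewhere) was read as not detected. Where a whole group lay there, no fold is given. Alternatives were the constant added, a mean log2 filter of 2, centring on 76 ribosomal protein genes, other eBayes settings, the replicate block and leaving out libraries. Marker and partner lists were described by counts and medians, with no set test. Of the lists not given in the report, 0 of 10 housekeeping genes and 1 of 10 leukocyte markers (Ptprc) were called higher. In the same lists, 2 of 14 dissociation genes and 6 of 12 proliferation genes were called lower. Of the lists given in part above, 2 of 5 endothelial markers (Tek and Esam) were called higher and 1 of 11 fibroblast and mural markers (Rgs5) was called lower. Among all listed genes 4.32% were called higher and 3.99% lower.

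Genes named were all called genes, those passing on adjusted p alone, the highest and smallest-p genes of each class, Epcam, and up to 3 called partners in each direction per list. Other genes were named to account for every member of a class, after their values were seen. Values of 2 of the 47 genes are not reported here, though counts and class medians include them. The junction genes and lists were chosen with earlier results of these data known.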

Additional observations from a re-analysis of the deposited data

Results flagged for a closer look

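Among 85 sets of 5 libraries (each of 45 junction genes in each group, unless all 5 were at the lowest value), 7 had 1 library set apart from the other 4 by Dixon's test at 95%, where chance gives about 1 in 20 for values without ties. For Gjb2, Pkp1 and Cdh11 the other 4 values were tied at 0. There any value above 0 is flagged, so the 1 in 20 does not apply to them. These levels are log2(RPKM + 1), with the lowest value of each library set to 0.

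Of the genes called or passing, Gjb2 stood at 1.03 in tuft 5 and at 0 in the other tuft libraries. Pkp1 stood at 3.02 in non-tuft 5 and at 0 in the other non-tuft libraries. Dsp was low in tuft 5, at 4.13 against 4.81 to 5.07. Cldn2 was low in tuft 3, at 3.70 against 5.91 to 6.13, and Cldn7 was high in non-tuft 4, at 6.85 against 5.51 to 5.79.

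Among the remaining genes, Dsg2 was low in non-tuft 5, at 2.93 against 5.00 to 5.50. Cdh11 was present only in tuft 5, at 1.87. Tuft 5 and non-tuft 5 were each the library set apart for more than 1 gene, and their own fibroblast and mural marker sums (275 and 817 RPKM) were the highest of their groups. The part of those cells in these values was not tested.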

How the results depend on the processing

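Of the results for the 23 junction genes taken by the naming rule, under all alternatives, 362 kept their direction and side of the threshold, 35 no longer passed, 9 newly passed and 7 changed sign. Outside these 23, genes that newly passed included Cldn18, Ctnna1, Cldn14, Jup and Tjp1 under the centring on ribosomal protein genes (adjusted p of 0.0115 to 0.0438 by limma), Cldn8 without tuft 4 and Cldn4 without non-tuft 2. The sign changes were Cdh1, which ran from -0.17 to 0.21 when 1 library was left out and was -0.37 without tuft 4, non-tuft 2 and non-tuft 5, and Ctnnb1 (0.29) and F11r (0.52) when centred on ribosomal protein genes. The cause was not tested. That centring moved the median difference of all genes from 0.02 to 0.82 and the higher share of calls from 52.0% to 85.3%. Relative to that shift Ctnnb1 and F11r stood at -0.53 and -0.30.

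The count called higher (2) was 0 with 10 added to RPKM, 9 under the centring, 7 with a fold over 2 or no fold threshold, 1 at an adjusted p under 0.01, and 1 to 4 when 1 library was left out: Tjp3 dropped out without non-tuft 1 or 2 or tuft 3, 4 or 5, and Cgn or Ctnnbip1 joined without non-tuft 4 or 5 or tuft 1 or 5. The count called lower (7) was 3 with 10 added and 4 under the centring. All genes called fell from 1010 to 278 with 10 added, which shrinks folds of low genes. The count higher on adjusted p alone (7) was 4 with 0.1 added, 14 under the centring, 4 without tuft 4, non-tuft 2 and non-tuft 5 (an alternative chosen after seeing the data), and 3 to 8 when 1 library was left out, with 3 without non-tuft 1, tuft 3 or tuft 5.

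The replicate block left 2 genes called higher and 6 lower, losing Cldn2 (adjusted p = 0.0635 by limma). Same-numbered libraries deviated together with a correlation over genes of 0.062 to 0.24, and 4 of 5 matched best with their own number. These values give no ground for rejecting a pairing by number, and the labels do not state whether a shared number means a shared mouse. The main fit and the permutation test used no pairing, so their p-values do not allow for shared mice. Precision is limited by 5 libraries of 100 cells each, and genes near 0 depend on the constant added.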
